A study of Mus musculus with 6 samples.

Results

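The extracellular ATP and adenosine axis was followed in neutrophils from the uterus of a mouse tumour model through 9 genes: Entpd1, Nt5e, Adora2a, Adora2b, Adora3, Ada, Slc29a1, P2rx4 and P2rx7. The genes were chosen by name for their place in the pathway, with earlier results of these data known. Their rows were found by the Ensembl gene IDs that GENCODE M21 pairs with these symbols. All 9 were among the 43432 genes in the count tables. Neutrophils had been sorted by flow cytometry from enzymatically dissociated uteri as CD45+ CD11b+ cells with high Ly6G, a surface protein of mouse neutrophils, and their RNA was sequenced. The hyperoxia group held 3 libraries from mice kept in a chamber at 60% oxygen between postnatal days 18 and 28, and the normoxia group held 3 libraries from mice kept in ambient air. All mice were 4 weeks old, of the C57BL/6 strain, and of a single genotype. In this model the Cre recombinase is expressed from the progesterone receptor gene (Pgrcre/+) and acts in cells that use that gene, which gives uterine tumours. Both groups carry the same alleles, so no library comes from mice without them. The labels do not say whether each library came from 1 animal or from a pool.

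Cells under stress or in the act of dying release ATP, which acts as a danger signal through P2X ion channels and P2Y receptors on nearby leukocytes. The surface enzyme CD39, encoded by Entpd1, degrades ATP and ADP to AMP, and CD73, encoded by Nt5e, turns AMP into adenosine. Adenosine acts on G protein-coupled receptors, and on neutrophils the receptors that raise cyclic AMP are known for restraining adhesion, oxidant release and cytokine production. The signal ends when adenosine is carried into cells, largely by the equilibrative transporter ENT1, encoded by Slc29a1, or is deaminated to inosine by adenosine deaminase, encoded by Ada. Low oxygen is known to favour this conversion: hypoxia-inducible factors raise Nt5e and Adora2b and lower Slc29a1 in several cell types.

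Promoter sequence is shown for 3 of the genes because hypoxia-inducible factors bind DNA at a short core motif, here searched as ACGTG or GCGTG on both strands. RefSeq entries on build GRCm38.p6 matched 8 of the 9 members, and Adora2a had none. Of the genes below, Adora2b and Slc29a1 were among the members whose libraries did not overlap between the housing groups, and Entpd1 had the highest level. Each run gives the 250 bases before the most upstream RefSeq start, 5′ to 3′ on the strand of the gene, with motif letters in capitals. Adora2b lies at chr11:62248734-62248983 on the plus strand, Slc29a1 at chr17:45599619-45599868 on the minus strand and Entpd1 at chr19:40612116-40612365 on the plus strand.
Adora2b: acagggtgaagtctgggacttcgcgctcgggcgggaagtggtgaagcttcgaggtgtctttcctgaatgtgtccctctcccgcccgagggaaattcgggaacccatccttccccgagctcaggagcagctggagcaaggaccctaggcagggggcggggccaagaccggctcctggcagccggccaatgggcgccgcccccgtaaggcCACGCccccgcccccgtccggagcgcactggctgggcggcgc
Slc29a1: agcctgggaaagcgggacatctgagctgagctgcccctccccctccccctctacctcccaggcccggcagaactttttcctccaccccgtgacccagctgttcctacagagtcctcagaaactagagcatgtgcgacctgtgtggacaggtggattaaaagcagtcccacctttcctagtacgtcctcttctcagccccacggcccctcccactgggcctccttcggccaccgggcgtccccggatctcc
Entpd1: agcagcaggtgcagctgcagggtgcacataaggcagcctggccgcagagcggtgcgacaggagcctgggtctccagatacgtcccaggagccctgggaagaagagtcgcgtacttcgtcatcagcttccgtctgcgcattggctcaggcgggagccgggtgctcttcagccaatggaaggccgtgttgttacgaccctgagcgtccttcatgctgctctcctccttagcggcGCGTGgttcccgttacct
The Adora2b window held 1 match, 42 bases before the start and read on the opposite strand. The Entpd1 window held 1 match, 18 bases before the start, and the Slc29a1 window held none. Slc29a1 has 8 annotated starts, and the windows of 4 of them held a match. Such a match is common: of 32817 promoter windows of this length, 38.6% held at least 1. A run TGACGTG would count under both motifs. Half-sites of the cyclic AMP response element, searched as TGACG on both strands, were present in 17.7% of windows and in 1 place before the most upstream Entpd1 start. Of the windows not printed, that of P2rx4 held 2 half-sites. Those of Entpd1 start 2 and Slc29a1 start 7, numbered from the most upstream, held 1 each.

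Libraries held 38683293 to 61715617 gene counts, and a floor of 3 counts corresponded to 0.0470 to 0.0771 CPM. CPM are counts divided by the library size, as scaled by TMM, and set to a common total. Transcripts that define the sort were present in every library, with Ptprc (CD45) at 524 to 769 CPM in hyperoxia and 492 to 648 CPM in normoxia. Ly6g stood at 196, 351 and 38.9 CPM in hyperoxia replicates 1 to 3 and at 146, 53.4 and 72.7 CPM in normoxia replicates 1 to 3. Hyperoxia replicate 2 stood apart from all other libraries in its neutrophil granule genes, with the granule gene Ngp at 5545 CPM in that library and at 33.2 to 514 CPM in the other 5. Markers of other cell types also differed. For scale, 9.57% of all genes tested had all hyperoxia libraries above all normoxia libraries, with no overlap. The summed level of 16 monocyte and macrophage markers was 2442 to 3681 CPM in hyperoxia and 1636 to 1873 CPM in normoxia, and 10 of the 16 had no overlap between groups, each higher in hyperoxia. The same sum over 9 endothelial markers was 27.9 to 66.7 CPM in hyperoxia and 8.87 to 14.2 CPM in normoxia, with 8 of the 9 free of overlap. It was 700 to 2100 against 475 to 514 CPM for 10 MHC class II and dendritic cell markers (7 of 10), 26.5 to 65.7 against 17.6 to 24.5 CPM for 7 smooth muscle markers (5 of 7), and 35.9 to 248.5 against 18.7 to 58.0 CPM for 10 stromal markers (2 of the 9 tested), each with hyperoxia before normoxia. Epithelial markers overlapped between groups in all 8 cases (summed level 13.8 to 209 CPM in hyperoxia and 71.3 to 158 CPM in normoxia), T and NK cell markers summed to 7.56 to 33.5 CPM in hyperoxia and 5.15 to 15.5 CPM in normoxia, and B cell markers to 29.3 to 53.8 CPM in hyperoxia and 30.4 to 31.6 CPM in normoxia.

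The highest level on the axis was that of Entpd1, and the lowest was that of Adora2a. Levels of different genes were compared as TPM, which divides counts by the merged exon length of a gene. In hyperoxia Entpd1 averaged 279 TPM, with a range of 166 to 363 over the 3 libraries. Adora2b took the next place (20.5 TPM; 11.1 to 33.6), above P2rx4 (12.6; 11.4 to 14.1), Adora3 (11.8; 8.36 to 15.7), Nt5e (10.1; 4.80 to 17.9), Ada (6.43; 2.24 to 14.3), Slc29a1 (2.43; 1.17 to 3.72), P2rx7 (0.798; 0.496 to 0.960) and Adora2a (0.470; 0.374 to 0.603). Only Entpd1 and Adora2b, and Slc29a1 and P2rx7, had ranges apart from their next neighbour. From Adora2b to Slc29a1 each gene overlapped with the next in this order, but Adora2b, P2rx4, Adora3 and Nt5e all lay above the range of Slc29a1.

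In normoxia the order was Entpd1 (307 TPM; 280 to 343), Adora3 (15.2; 12.98 to 18.0), P2rx4 (11.2; 10.6 to 11.9), Nt5e (10.1; 8.93 to 10.7), Adora2b (6.39; 5.62 to 6.90), Ada (3.61; 3.60 to 3.62), Slc29a1 (0.902; 0.718 to 1.07), P2rx7 (0.716; 0.608 to 0.789) and Adora2a (0.0497; 0.0354 to 0.0674). Here the ranges overlapped between P2rx4 and Nt5e and between Slc29a1 and P2rx7, and between no other neighbours.

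**Figure D1:**
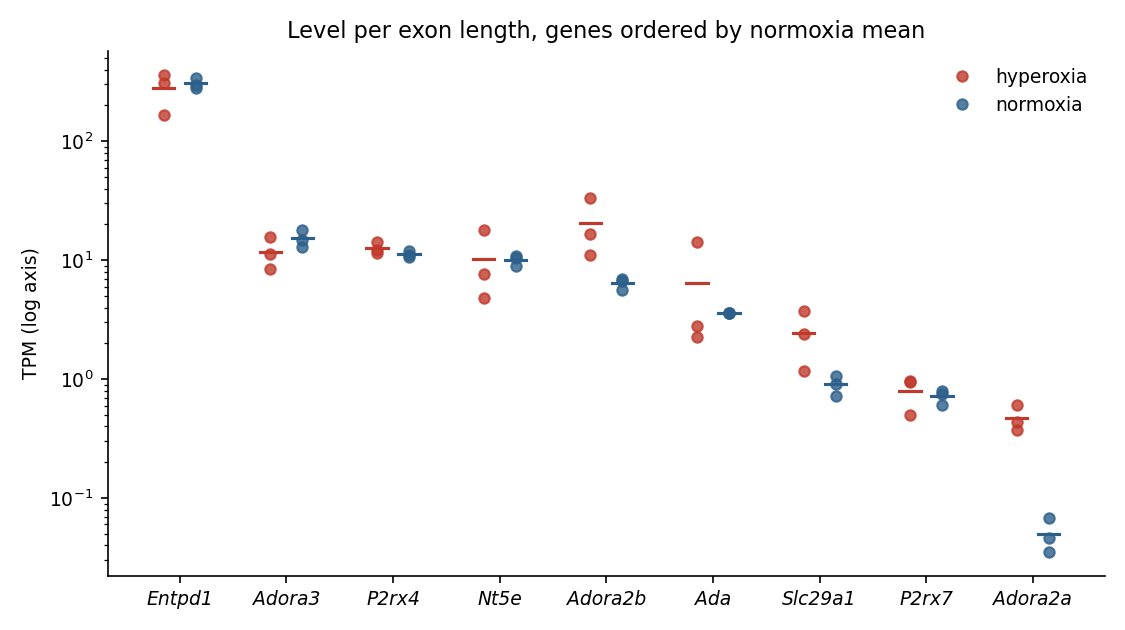
Level of each gene in TPM on a log axis, with 1 point per library, hyperoxia on the left of each pair and normoxia on the right, and a bar at the group mean. Entpd1 averages 279 TPM in hyperoxia and 307 TPM in normoxia, far above the others, and Adora2a averages 0.470 TPM in hyperoxia and 0.0497 TPM in normoxia.

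Among the 9 genes, adenosine receptor genes Adora2a and Adora2b and the transporter gene Slc29a1 had the lowest p values, all with higher levels in hyperoxia. In edgeR's quasi-likelihood test with Benjamini-Hochberg adjustment over 12908 genes, 0 of the 9 members passed an adjusted p of 0.05 as higher or as lower. That test called 0 genes in either direction over the whole table, a background of 0%, and limma-voom likewise called 0. With p under 0.05 before adjustment, 3 members were higher and 0 lower, where 9.1% of all genes tested were higher and 3.91% lower. DESeq2, run on the same counts, called 3 members higher and 0 lower at an adjusted p of 0.05, against 3.65% of all genes higher and 0.411% lower. For 4 members the 3 hyperoxia libraries all lay above the 3 normoxia libraries, and for 0 members all below, against 9.57% of all genes tested higher and 10.3% lower. The median log2 difference over the members was 0.26, and that over all genes tested 0.04. The members were chosen with earlier results of these data known, so these are not independent comparisons with all genes. Every member passed the filter on low counts, but Adora2a did so through the hyperoxia libraries alone, so a difference between groups was built into its passing. Adora2a is among the members counted above as higher, so those counts share this limit. In bulk RNA of sorted cells, a change in the number of cells of a type and a change in RNA per cell cannot be told apart.

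**Figure D2:**
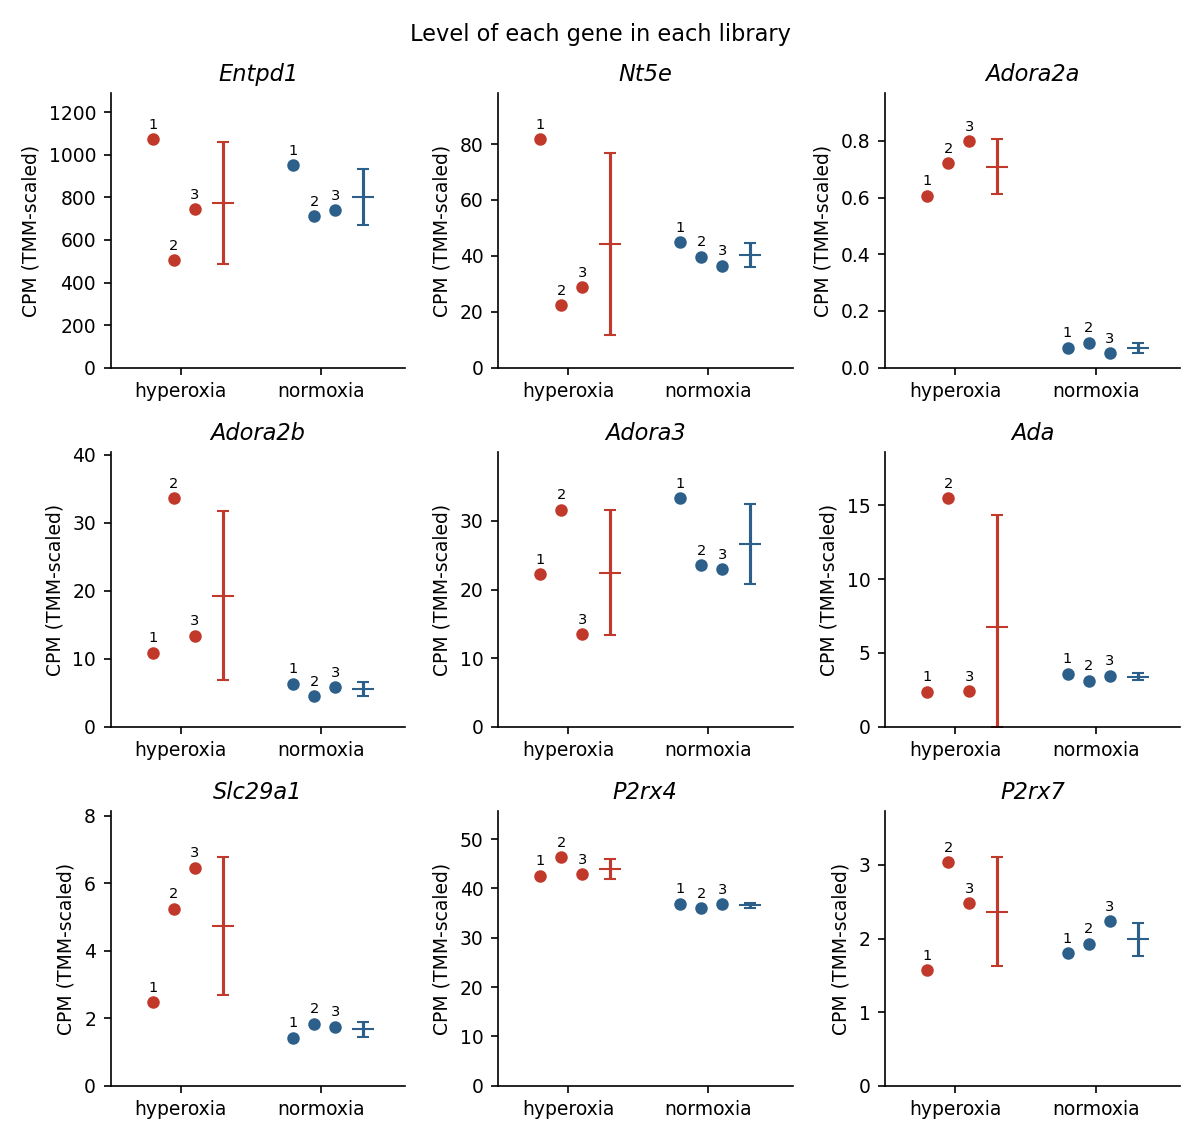
Level of each of the 9 genes in CPM on a linear axis from 0, with 1 point per library labelled by replicate number, and the mean with its SD beside the points (n = 3 each; the lower bar of Ada in hyperoxia ends at 0). Adora2a, Adora2b, Slc29a1 and P2rx4 have all hyperoxia points above all normoxia points, and Ada is high in hyperoxia replicate 2 alone.

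Adora2a (ENSMUSG00000020178) encodes a receptor that couples to Gs proteins and raises cyclic AMP, and it is best known in leukocytes as a brake on activation. Its gene lies on chromosome 10 between 75316877 and 75334784 in GRCm38, on the plus strand. The hyperoxia libraries held 24, 46 and 38 counts (0.607, 0.721 and 0.800 CPM), against 3, 4 and 2 counts (0.0702, 0.0887 and 0.0514 CPM) in the normoxia libraries. All hyperoxia values lay above all normoxia values, and the normoxia values lay near the floor of 3 counts. Summed over libraries, 108 counts in hyperoxia against 9 in normoxia gave a ratio of 10.1 once library sizes were taken into account, with a 95% exact Clopper-Pearson interval of 5.12 to 22.6 that covers counting error only. On the log2 scale the fitted difference was 3.28 ± 0.54 (SE); its adjusted p was 0.0974 in edgeR and 0.00129 in DESeq2. By unadjusted p in edgeR the gene ranked 30 of 12908. Because Adora2a passed the filter through the hyperoxia libraries alone, its p values, rank and count interval are not independent of that filter. Of the 9 endothelial markers 8 had their hyperoxia libraries above the normoxia libraries, against 9.57% of all genes tested. Among them was Tek, which is similarly low in abundance, at 0.556, 0.642 and 0.589 CPM in hyperoxia and at 0, 0.0222 and 0.0257 CPM in normoxia. Tek, chosen after its values were seen, also passed the filter through the hyperoxia libraries alone. Its lack of overlap, and its part in the count of 8, are therefore not independent of that filter. The part that other cell types had in the counts of Adora2a was not tested, nor was it for Adora2b and Slc29a1, whose higher levels stood beside the higher macrophage, dendritic cell and endothelial marker sums given above.

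Adora2b (ENSMUSG00000018500) encodes the low-affinity adenosine receptor, which answers to the high adenosine of hypoxic or injured tissue. It lies on chromosome 11 between 62248984 and 62266453, on the plus strand, and its promoter window is the first of those printed above. Its level was 10.8, 33.6 and 13.4 CPM in hyperoxia replicates 1 to 3, against 6.32, 4.46 and 5.83 CPM in normoxia replicates 1 to 3. The groups did not overlap, and hyperoxia replicate 2 stood well above all other libraries. Its mean was 19.3 ± 12.5 CPM under hyperoxia, against 5.53 ± 0.965 CPM under normoxia (SD, n = 3 each). With 1.80 ± 0.42 (SE; 95% interval 0.83 to 2.77) on the log2 scale it had an adjusted p of 0.152 in edgeR and of 0.00217 in DESeq2, which called the gene higher. Without hyperoxia replicate 2 that difference was 1.15 in edgeR, and DESeq2 still called the gene, with an adjusted p of 0.00374. Without normoxia replicate 2, DESeq2 no longer called it (adjusted p of 0.0858).

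Adora3 (ENSMUSG00000000562) encodes a receptor that couples to Gi proteins and lowers cyclic AMP, and in mice it is also known from mast cells. It lies on chromosome 3 between 105870858 and 105908926, on the plus strand. It stood at 22.2, 31.7 and 13.5 CPM in hyperoxia and at 33.3, 23.5 and 23.0 CPM in normoxia, so the groups overlapped. Its log2 difference was -0.24 ± 0.32 (SE; 95% interval -0.97 to 0.48; edgeR's adjusted p 0.796). The 10 mast cell and basophil markers summed to 3922 to 6242 CPM in hyperoxia and 3993 to 5089 CPM in normoxia. Nearly all of that sum was Hdc, the histamine-forming enzyme that neutrophils also express, at 3915 to 6241 CPM in hyperoxia and 3991 to 5087 CPM in normoxia. Kit stood at 0.673 to 6.94 CPM in hyperoxia and 1.02 to 1.85 CPM in normoxia. The other 8 were at most 0.884 CPM in any library and did not pass the filter, and Ms4a2 and Tpsab1 among them had 0 counts. The part of mast cells in the level of Adora3 was not tested. Exons of Adora3 share 779 bases with those of Tmigd3 on the same strand, a gene with 27 to 52 counts per library, and reads in the shared stretch cannot be told apart.

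Within a library, the ratio of Adora2a to Adora2b per length was 0.0337, 0.0129 and 0.0361 in hyperoxia and 0.00669, 0.0120 and 0.00531 in normoxia. The groups did not overlap, but hyperoxia replicate 2 and normoxia replicate 2 were close. The log2 ratio was higher by 1.73 in hyperoxia, with an exact two-sided permutation p of 0.1, the smallest that 3 libraries against 3 allow, or 0.3 after adjustment over 3 such ratios. With 1 added to the raw counts, the difference was 1.34 and the exact permutation p was 0.2. The few normoxia counts of Adora2a limit this ratio.

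Entpd1 and Nt5e, the members that act in the first steps from ATP to adenosine, showed no difference beyond the spread of the libraries. Other enzymes of these steps are described below. Entpd1 (ENSMUSG00000048120), on chromosome 19 between 40612366 and 40741602 on the plus strand, stood at 1073, 503 and 744 CPM in hyperoxia and at 950.2, 712 and 740.4 CPM in normoxia. Hyperoxia libraries included both the highest and the lowest of the 6. Between the groups the log2 difference was -0.05 ± 0.30 (SE; edgeR's adjusted p 0.963), and its 95% interval allows a fold of 0.599 to 1.56.

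Nt5e (ENSMUSG00000032420), on chromosome 9 between 88327197 and 88372092 on the plus strand, encodes the step that yields adenosine and stood at 81.7, 22.4 and 28.7 CPM in hyperoxia and at 44.9, 39.7 and 36.4 CPM in normoxia. Hyperoxia replicate 1 was above and hyperoxia replicates 2 and 3 were below all normoxia libraries. Its log2 difference was 0.13 ± 0.44 (SE; 95% interval -0.88 to 1.15; adjusted p of 0.933 in edgeR), and it was -0.63 without hyperoxia replicate 1. The ratio of Entpd1 to Nt5e per length was 20.2, 34.6 and 39.9 in hyperoxia and 32.7, 27.6 and 31.3 in normoxia, which spans a narrower range in normoxia. Its mean log2 value was 4.92 in hyperoxia and 4.93 in normoxia, with an exact two-sided permutation p of 1.

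Of the genes that remove adenosine, Slc29a1 had its hyperoxia libraries above the normoxia libraries, while Ada was high in a single library. Slc29a1 (ENSMUSG00000023942), on chromosome 17 between 45585200 and 45599606 on the minus strand, stood at 2.48, 5.25 and 6.46 CPM in hyperoxia and at 1.43, 1.84 and 1.75 CPM in normoxia. All hyperoxia libraries lay above all normoxia libraries, and hyperoxia replicate 1 lay nearest to them. This gave a log2 difference of 1.50 ± 0.39 (SE; 95% interval 0.62 to 2.38), which DESeq2 called (adjusted p 0.0109) and edgeR did not (adjusted p 0.179). Without hyperoxia replicate 1 edgeR called the gene, with an adjusted p of 0.0413 and a log2 difference of 1.84. DESeq2 no longer called it without hyperoxia replicate 3 (adjusted p of 0.0848) or without normoxia replicate 1 (0.150), 2 (0.0937) or 3 (0.0692). The antisense gene Gm17080, which shares 275 exon bases with Slc29a1, had 0 counts.

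Ada (ENSMUSG00000017697), on chromosome 2 between 163726584 and 163750239 on the minus strand, stood at 2.38, 15.5 and 2.42 CPM in hyperoxia and at 3.58, 3.10 and 3.44 CPM in normoxia. Hyperoxia replicate 2, the library with the highest granule genes, was far above the other 5, while hyperoxia replicates 1 and 3 were below all normoxia libraries. On the log2 scale it differed by 1.01 ± 0.68 (SE; adjusted p of 0.575 in edgeR), and it was -0.47 without hyperoxia replicate 2, so 1 library set both its sign and its size.

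P2rx4 (ENSMUSG00000029470) and P2rx7 (ENSMUSG00000029468) encode ATP-gated cation channels and are neighbours on the plus strand of chromosome 5, where 16111 bases separate the end of P2rx7 (122643911 to 122691432) from the start of P2rx4 (122707544 to 122729738). P2X4 channels open at low ATP concentrations, whereas P2X7 channels need the high concentrations of damaged tissue and are known for starting inflammasome assembly in macrophages. P2rx4 stood at 42.6, 46.3 and 42.9 CPM in hyperoxia and at 36.9, 36.1 and 36.8 CPM in normoxia. Relative to its mean it had the narrowest spread of the 9 genes in hyperoxia, and the groups did not overlap. Even so, the log2 difference of 0.26 ± 0.17 (SE; 95% interval -0.13 to 0.66) did not pass in edgeR (adjusted p 0.554) or DESeq2 (0.621). P2rx7 stood at 1.57, 3.04 and 2.48 CPM in hyperoxia and at 1.80, 1.93 and 2.23 CPM in normoxia, with overlap, and differed by 0.25 ± 0.34 (SE; adjusted p of 0.802 in edgeR). The ratio of P2rx7 to P2rx4 per length was 0.0433 to 0.0771 in hyperoxia and 0.0574 to 0.0715 in normoxia, with an exact two-sided permutation p of 0.9 for its log2 value.

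**Figure D3:**
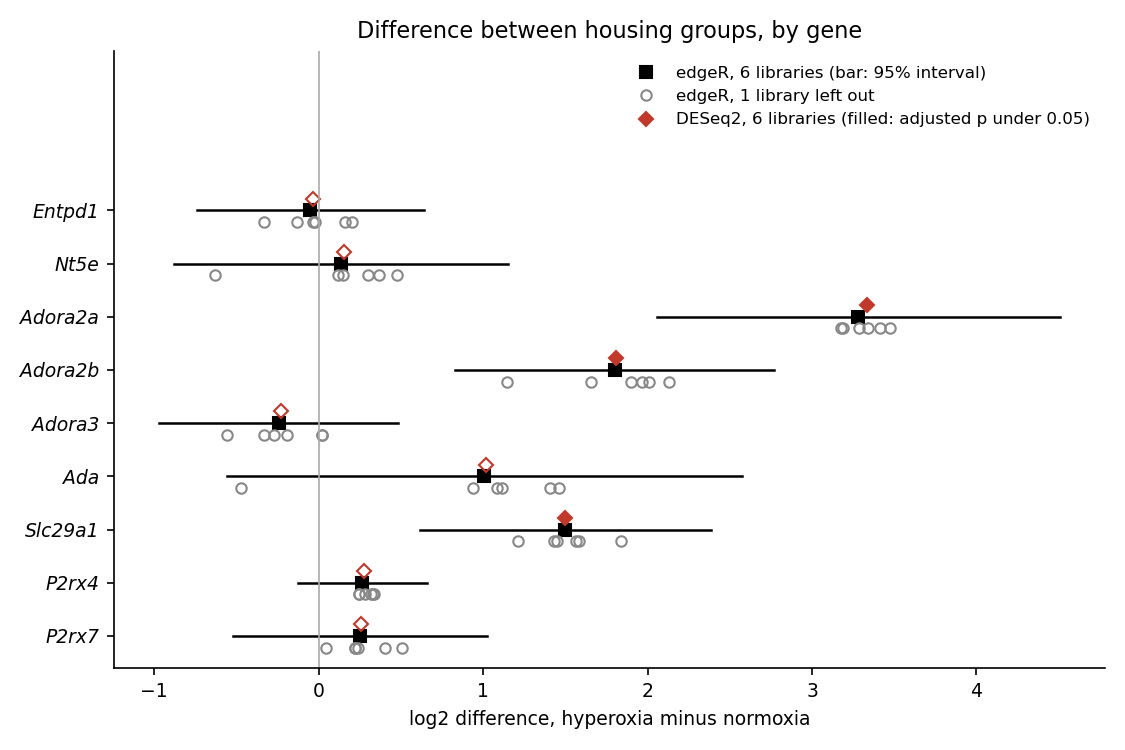
Log2 difference, hyperoxia minus normoxia, of each gene in edgeR (squares, with 95% intervals), in edgeR with 1 library left out (open circles) and in DESeq2 (diamonds, filled where the adjusted p was under 0.05). Adora2a, Adora2b and Slc29a1 stay above 0 in every fit drawn, at 3.28, 1.80 and 1.50 with all libraries, while Entpd1, Nt5e, Adora3 and Ada take both signs.

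Other genes of ATP and adenosine signalling were described through 7 lists chosen by function, with earlier results of these data known. Of 100 listed genes 98 were in the tables and 77 passed the filter, 2 of them (Enpp2 and P2ry10) through the hyperoxia libraries alone. In edgeR 0 of the 77 passed an adjusted p of 0.05, while 12 were higher and 4 lower with p under 0.05 before adjustment, where the shares over all genes tested were 9.1% higher and 3.91% lower. DESeq2 called 3 higher and 1 lower, against 3.65% and 0.411% of all genes, so its count of higher genes was near that background. The median log2 difference was 0.30, against 0.04 over all genes tested.

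Among 13 measured ectonucleotidases and related ectoenzymes, 5 were higher and 1 lower by the same unadjusted cutoff, against 9.1% and 3.91% of all genes tested. The 5 higher were Enpp2, Enpp1, Acpp, Cd38 and Dpp4. Cd38 stood well above the other libraries in hyperoxia replicate 2 alone, and its groups overlapped. DESeq2 called 1 gene of the list, Enpp2, which had passed the filter through the hyperoxia libraries alone; over all genes it called 3.65% higher. Enpp2, which encodes autotaxin, known mainly for making lysophosphatidic acid, stood at 0.253, 2.07 and 0.589 CPM in hyperoxia and at 0.0936, 0.155 and 0.154 CPM in normoxia, with a log2 difference of 2.84 ± 0.82 (SE; adjusted p 0.217 in edgeR and 0.0252 in DESeq2). Enpp1, which splits ATP into AMP and pyrophosphate, averaged 0.809 ± 0.244 CPM under hyperoxia, against 0.269 ± 0.0372 CPM under normoxia (SD, n = 3 each). Its groups did not overlap. Acpp, a phosphatase that can make adenosine from AMP, averaged 10.9 ± 5.06 against 5.31 ± 1.51 CPM, with overlap between groups. Entpd3, which like Entpd1 degrades ATP and ADP, was the only gene of the 13 with a negative sign. It stood at 156, 123 and 232 CPM in hyperoxia and at 282, 334 and 225 CPM in normoxia, so that the groups overlapped, and its log2 difference was -0.72 ± 0.28 (SE; adjusted p 0.348 in edgeR and 0.213 in DESeq2).

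The list of other genes named as P2X, P2Y or adenosine receptors had 10 measured genes. With p under 0.05 before adjustment, 2 were higher and 2 lower, against 9.1% and 3.91% of all genes tested. The 2 higher were P2ry10b and P2ry10, and the 2 lower were P2ry2 and P2ry12. P2ry10b, whose close relative P2ry10 is a receptor for lysophosphatidylserine, averaged 1.38 ± 0.765 CPM under hyperoxia, against 0.329 ± 0.135 CPM under normoxia (SD, n = 3 each), and was called by DESeq2 with an adjusted p of 0.0318, but not by edgeR (0.220). P2ry10 averaged 0.413 ± 0.227 against 0.135 ± 0.0495 CPM, and how reads shared between these relatives were counted is uncertain. P2ry10 had passed the filter through the hyperoxia libraries alone, so its place among the higher genes is not independent of that filter. P2ry2, a receptor for ATP and UTP that neutrophils use in chemotaxis, stood at 84.8, 44.9 and 75.7 CPM in hyperoxia and at 99.4, 118 and 98.7 CPM in normoxia. P2ry12, a receptor for ADP, stood at 30.3, 26.2 and 25.1 CPM in hyperoxia and at 46.7, 40.9 and 33.2 CPM in normoxia. Neither gene overlapped between groups, and 10.3% of all genes tested likewise lay wholly lower in hyperoxia. Their log2 differences were -0.62 ± 0.26 and -0.56 ± 0.20 (SE), and neither was called by edgeR (adjusted p of 0.372 and 0.309) or DESeq2 (0.324 and 0.270).

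In the lists for release, uptake and turnover, 1 gene each was higher before adjustment and 0 lower, against 9.1% and 3.91% of all genes tested. Of 7 measured genes for ATP release it was Panx1, which encodes a channel that lets ATP out of cells (2.02 ± 0.452 CPM under hyperoxia, against 0.925 ± 0.180 CPM under normoxia; SD, n = 3 each). Of 4 other nucleoside transporters it was Slc29a2, which encodes the transporter ENT2 (0.531 ± 0.134 against 0.180 ± 0.0635 CPM), and of 12 genes for turnover of adenosine and AMP inside cells it was Ampd2, an AMP deaminase (4.72 ± 1.85 against 2.26 ± 0.115 CPM). Neither DESeq2 (adjusted p of 0.0995, 0.264 and 0.0888, in this order) nor edgeR (0.252, 0.291 and 0.253) called them.

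Downstream of the receptors, 21 genes of cyclic AMP signalling had a median log2 difference of 0.18. Pde4b, which encodes a phosphodiesterase that breaks down cyclic AMP, was the only one under an unadjusted p of 0.05. Over all genes tested, 9.1% were higher and 3.91% lower by that cutoff. Pde4b stood at 1019, 530.0 and 1233 CPM in hyperoxia and at 589, 476 and 506 CPM in normoxia. It differed by 0.82 ± 0.32 on the log2 scale (SE; adjusted p 0.331 in edgeR and 0.169 in DESeq2), with overlap between groups, and 0 genes of the list were called by either. Of 10 inflammasome genes linked to P2X7, DESeq2 called 1 higher and 1 lower, against 3.65% and 0.411% of all genes. Kcnn4, a calcium-activated potassium channel, stood at 10.4, 10.6 and 14.1 CPM in hyperoxia and at 3.42, 3.75 and 4.65 CPM in normoxia, a log2 difference of 1.57 ± 0.24 (SE; adjusted p of 0.0974 in edgeR and 1.04e-05 in DESeq2). Txnip, which binds thioredoxin and can bind the inflammasome sensor NLRP3, stood at 163, 93.9 and 116 CPM in hyperoxia and at 256, 231 and 216 CPM in normoxia, a log2 difference of -0.92 ± 0.25 (SE; adjusted p of 0.189 in edgeR and 0.0401 in DESeq2). The sensor gene Nlrp3 overlapped between groups, at 729, 240 and 950.2 CPM in hyperoxia and at 395, 377 and 434 CPM in normoxia.

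**Figure D4:**
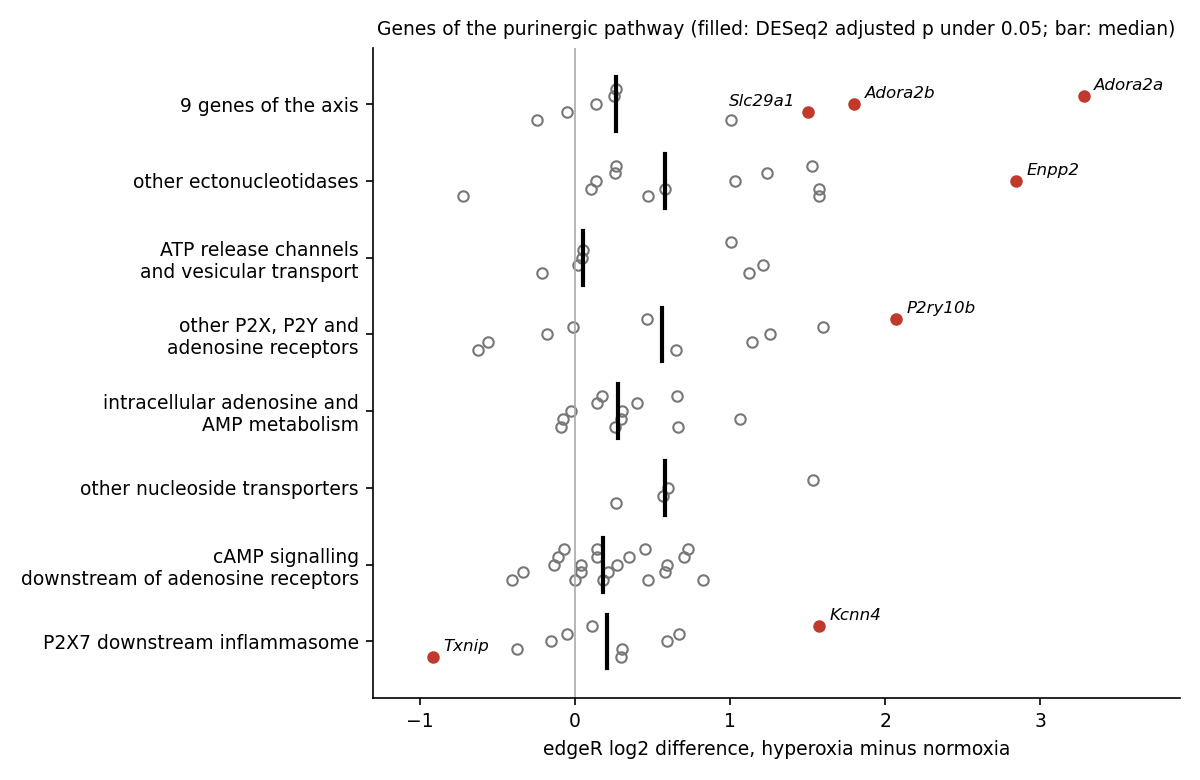
Log2 difference in edgeR, hyperoxia minus normoxia, of the 9 genes and of the measured genes in each of 7 pathway lists, with 1 point per gene, filled where DESeq2's adjusted p was under 0.05, and a bar at the median of each list. Medians lie between 0.05 and 0.58, and the filled points are Adora2a, Adora2b, Slc29a1, Enpp2, P2ry10b and Kcnn4 above 0 and Txnip below 0.

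For the 5 members whose average log2 CPM was 3 or more, the genes with the most similar pattern over the 6 libraries were found by the root-mean-square distance of their centred log2 CPM among 5177 genes. The nearest to Adora2b were Mndal and Ctsc, at distances of 0.13 and 0.15, where Adora2b itself had an SD of 1.06. Nearest to Entpd1 were Mxd1 and Nlrc5 (0.06 each, SD of Entpd1 0.38), and nearest to Nt5e were Ski and Herc6 (0.10 and 0.13, SD of Nt5e 0.64). Bid and Stambpl1 were nearest to Adora3 (0.09 each, SD 0.46), and Hdac1 and Slc25a1 to P2rx4 (0.05 each, SD 0.15). The distances describe these 6 libraries only.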

How the data were processed

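RNA-seq of sorted uterine neutrophils was compared between hyperoxia and normoxia housing, with 3 libraries per group. Each library has a deposited table of gene counts, whole numbers with no normalization. According to the submitters' processing notes, STAR 2.4.2a, DESeq2 1.16.1 and build GRCm38 were used. Counting program, strandedness and annotation are not given in the sources used here. Symbols, coordinates and merged exon lengths came from GENCODE M21 (GRCm38), which matched 42548 of 43432 IDs, and promoters from RefSeq (GRCm38.p6).

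Counts were analysed in R 4.3.3 with edgeR 4.0.16: genes were filtered by filterByExpr (at least 0.225 CPM in 3 libraries), scaled by TMM and compared by a robust quasi-likelihood test, two-sided, with Benjamini-Hochberg adjustment over 12908 genes. Standard errors were derived from the F statistic. DESeq2 1.42.0 and limma 3.58.1 (voom) gave alternatives, with other scalings, filters, a threshold of 0.1 and each library left out. The edgeR and DESeq2 fits were also run on simulated counts. The outcome is not given here, so those runs do not show which test to prefer. All pairs of libraries differed by more than sampling noise (chi-square per degree of freedom 33.2 to 803). Groups come from the housing label. The conditional allele of the model is not reported here. Separate animals are not stated, so a p-value here reflects the spread among these libraries, and that spread may be technical. Intervals of counts cover counting error only.

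The members and lists were chosen with earlier results of these data known. Named genes are the 9 members and the 2 genes nearest to each abundant member. Up to 4 genes of each pathway list with an unadjusted p under 0.05 are also named. Nlrp3, Ngp, Tek, Cd38, Dpp4 and the mast cell genes were added after their values were seen. Of the listed genes, Ankh and Pnp are not analysed here.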

Additional observations from a re-analysis of the deposited data

How the results depend on the processing

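Signs of Adora2a, Adora2b, Slc29a1, P2rx4 and P2rx7 were the same under all alternatives run, while calls depended on the test and on single libraries. DESeq2 called 461 genes higher and 52 lower, among them 3 members (log2 differences of 3.33 for Adora2a, 1.81 for Adora2b and 1.50 for Slc29a1). With 1 library left out, an alternative chosen after seeing the data, it called 195 to 836 higher and 6 to 276 lower, and 1 to 3 members; Adora2a had no adjusted p there without hyperoxia replicate 3. limma-voom called 0 genes, and with sample quality weights 35 higher and 1 lower, none of them a member. Without a filter edgeR called 205 higher and 9 lower, including 1 member, Adora2a (3.29), and at a threshold of 0.1 it called 28 and 2, again with 1 member, Adora2a (3.28). With 1 library left out edgeR called 0 to 164 genes higher and 0 to 12 lower, with 0 to 1 members. All calls in these leave-one-out fits of edgeR came without hyperoxia replicate 1, where the member was Slc29a1.

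Leaving out 1 library in edgeR or DESeq2 gave log2 differences of 3.15 to 3.53 for Adora2a, 1.12 to 2.13 for Adora2b, 1.21 to 1.84 for Slc29a1, -0.50 to 1.46 for Ada, -0.68 to 0.48 for Nt5e, -0.38 to 0.20 for Entpd1 and -0.57 to 0.037 for Adora3. Nt5e was also negative in limma-voom (-0.10), and Entpd1 was positive with quality weights (0.052) and with upper quartile factors (0.0025). The cause was not tested. No paired analysis was possible because the labels give no batch, litter or pairing. Scaling settings moved the median of all genes by under 0.1. Adora2a, with 2 to 4 counts in normoxia libraries, is limited by depth. In fits with the main filter Adora2a passed through the hyperoxia libraries alone, so its calls and sign there are not independent of that filter.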

Other observations

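Other receptors and enzymes for nucleotides were more abundant than most of the 9 genes, and they are given here as levels, chosen after their values were seen. Among purinergic receptors measured, P2ry13, a receptor for ADP, had the highest level per exon length, with 106 to 141 TPM in hyperoxia and 125 to 164 TPM in normoxia. Lower levels were those of P2ry6, a receptor for UDP (38.3 to 51.1 TPM in hyperoxia and 44.1 to 52.8 TPM in normoxia), P2ry2 (21.1 to 44.5 TPM in hyperoxia and 51.0 to 70.1 TPM in normoxia) and P2ry12 (19.0 to 22.8 TPM in hyperoxia and 27.4 to 37.4 TPM in normoxia). Of the ectoenzymes, Bst1, which uses NAD, reached 164 to 215 TPM in hyperoxia and 187 to 199 TPM in normoxia, and Entpd3 reached 60.5 to 143 TPM in hyperoxia and 126 to 207 TPM in normoxia. Cd38, another NAD-consuming ectoenzyme, stood at 14.8, 63.9 and 9.56 CPM in hyperoxia and at 11.98, 9.71 and 7.94 CPM in normoxia, with hyperoxia replicate 2 above the rest as for Ada and Adora2b. Among nucleoside transporters, the concentrative transporter gene Slc28a2 (19.3 to 50.6 TPM in hyperoxia and 19.7 to 34.6 TPM in normoxia) had a higher level per length than Slc29a1 in every library.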
